A study of Homo sapiens with 32 samples.

Results

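Interferon-stimulated genes are the genes that cells switch on when interferon binds its receptors. A list of 44 of them was followed in PC-3, an established line of human prostate cancer cells, on 32 single-colour Illumina bead arrays. The members were taken by gene symbol, and the brightest probe annotated to a symbol stood for the gene. A probe was found for 42 of the 44, and STAT2 and HERC6 were not analysed here. Of the 42, 33 lay in the upper 60% of probes by mean log2 intensity and were tested among 10598 genes in all, while 9 lay below that limit and are given separately. The cells received vehicle, cyclophosphamide (called inactive in the labels) or 4-hydroperoxycyclophosphamide (called active) and were collected after 10, 24 or 48 h. Each compound was run as an experiment of 16 arrays with vehicle arrays of its own. For the active compound there were 3 vehicle arrays per time, with 2, 2 and 3 treated arrays at 10, 24 and 48 h. For the inactive compound, vehicle and treated groups had 3 arrays each at 10 and 24 h and 2 each at 48 h. The protocol gives a dose of 5.5 µM in a phrase that covers both compounds, whereas the design text attaches it to the active one, so it is less sure for the inactive one. The labels describe the vehicle arrays as untreated, and do not say whether arrays of a group came from separate flasks, so p-values measure the spread between arrays, which may be technical.

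Cyclophosphamide is a prodrug that liver enzymes oxidise to its alkylating form. The hydroperoxy derivative carries an additional hydroperoxy group on the ring and gives rise to the alkylating form in culture medium without the liver enzymes. Interferons bind receptors that signal through Janus kinases to transcription factors, among them ISGF3, which holds STAT2 and IRF9. ISGF3 binds a DNA element called the interferon-stimulated response element (ISRE), and IRF1 drives a partly overlapping set of genes. Among the products, MX1 and the IFIT and IFITM proteins interfere with viral entry and replication, the OAS enzymes sense double-stranded RNA, and ISG15 is a ubiquitin-like tag attached to proteins by UBE2L6 and HERC5. In tumour cells these genes are also known to respond to DNA damage and to nucleic acids in the cytosol.

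Genes that PC-3 is known to express were bright, with medians of 10.5 to 12.3 log2 units for KRT8, KRT18, EPCAM, CD44 and VIM, and the probes of CD14, CD3E, VWF, COL3A1 and PDGFRB lay below the limit for testing. PTPRC, PECAM1 and COL1A1, markers of leukocytes, endothelium and fibroblasts, lay just above it at 6.80, 7.03 and 7.15. The 75th percentile of raw intensity was 430.9 to 655.5 on arrays of the active-compound experiment and 274.6 to 416.2 on the others. Placed on the axis between 10 h and 24 h, the replicate 3 arrays of the inactive-compound experiment, vehicle and treated, fell on the side of the other time at both hours, and so did the vehicle replicate 3 array of the active-compound experiment at 10 h. Within each experiment, counts of members called that use these arrays are given with and without them. For the mean compound difference, the inactive-compound ones were left out together and the active-compound one only singly.

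Letters of the ISRE were found near the annotated start of many members. RefSeq sequences of GRCh38.p14, from 250 bases before to 50 bases after each annotated start, were found for 35 of the 44 members. The ISRE was searched as GAAANNGAAA on both strands, its other strand reading TTTCNNTTTC. It was present in 23 of these 35 genes (65.7%), against 4.38% of 27305 genes with a window. The gamma-activated sequence (GAS), another element of interferon-responsive genes, searched as TTCNNNGAA, which reads alike on both strands, was present in 12 of 35 (34.3%) against 9.38%. In 7 instances a GAS match overlapped an ISRE match, counting windows of alternative start sites separately. Shown first are 100 bases on the gene's own strand, from 130 to 31 bases before 1 annotated start, with each ISRE match in capitals. They come from 3 members whose transcripts rose under the active compound and whose stretch holds the ISRE:
IFI44: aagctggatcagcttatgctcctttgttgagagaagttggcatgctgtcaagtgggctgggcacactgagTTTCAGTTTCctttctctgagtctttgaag
IFI44L: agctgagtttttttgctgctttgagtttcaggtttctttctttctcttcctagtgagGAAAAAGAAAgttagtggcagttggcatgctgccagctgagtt
ISG15: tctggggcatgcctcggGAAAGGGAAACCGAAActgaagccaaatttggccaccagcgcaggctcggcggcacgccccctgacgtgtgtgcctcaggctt
The stretches lie at chr1:78649701-78649800 for IFI44, chr1:78620318-78620417 for IFI44L and chr1:1013367-1013466 for ISG15, all on the plus strand. The capitals of ISG15 are 2 overlapping matches.

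IFIT1, IFIT3 and DDX60 each hold 2 separate matches in the same stretch, and none of the 3 was called higher under the active compound at any time:
IFIT1: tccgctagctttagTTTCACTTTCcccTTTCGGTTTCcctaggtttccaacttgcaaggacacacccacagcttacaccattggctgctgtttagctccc
IFIT3: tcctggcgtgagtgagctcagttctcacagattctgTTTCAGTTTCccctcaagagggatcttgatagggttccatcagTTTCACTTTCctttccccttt
DDX60: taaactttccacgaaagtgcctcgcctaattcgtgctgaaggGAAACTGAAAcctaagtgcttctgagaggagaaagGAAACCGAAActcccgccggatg
They lie at chr10:89392493-89392592 (plus strand), chr10:89332399-89332498 (plus strand) and chr4:168318783-168318882 (minus strand). UBE2L6 and IFI35 rose at 48 h, and their stretches, at chr11:57567966-57568065 (minus strand) and chr17:43006654-43006753 (plus strand), hold no ISRE match:
UBE2L6: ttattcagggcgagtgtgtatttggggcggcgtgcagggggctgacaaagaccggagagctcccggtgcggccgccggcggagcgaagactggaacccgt
IFI35: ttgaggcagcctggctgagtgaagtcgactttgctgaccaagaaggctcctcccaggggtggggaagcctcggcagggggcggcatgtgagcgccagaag
Among members with a window, 4 of the 8 called higher at 48 h of the active compound held the ISRE, as did 16 of the 21 tested and not called. The median 48 h change was 0.18 for the 20 tested members with the ISRE and 0.20 for the 9 without it. The GAS was held by 4 of the same 8 and by 7 of the same 21. That of IFI35 lies 22 to 14 bases before the start, outside the stretch shown. IFIT2, OASL and OAS2 were also called higher at 48 h but had no window, so these values leave them out. Whether either element goes with the rise was not tested. Among genes outside the list, 7.69% of 325 with the ISRE and 4.72% of 8456 without it were called higher at that time. A match describes these letters only, and its absence says nothing of a factor's binding.

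**Figure D1:**
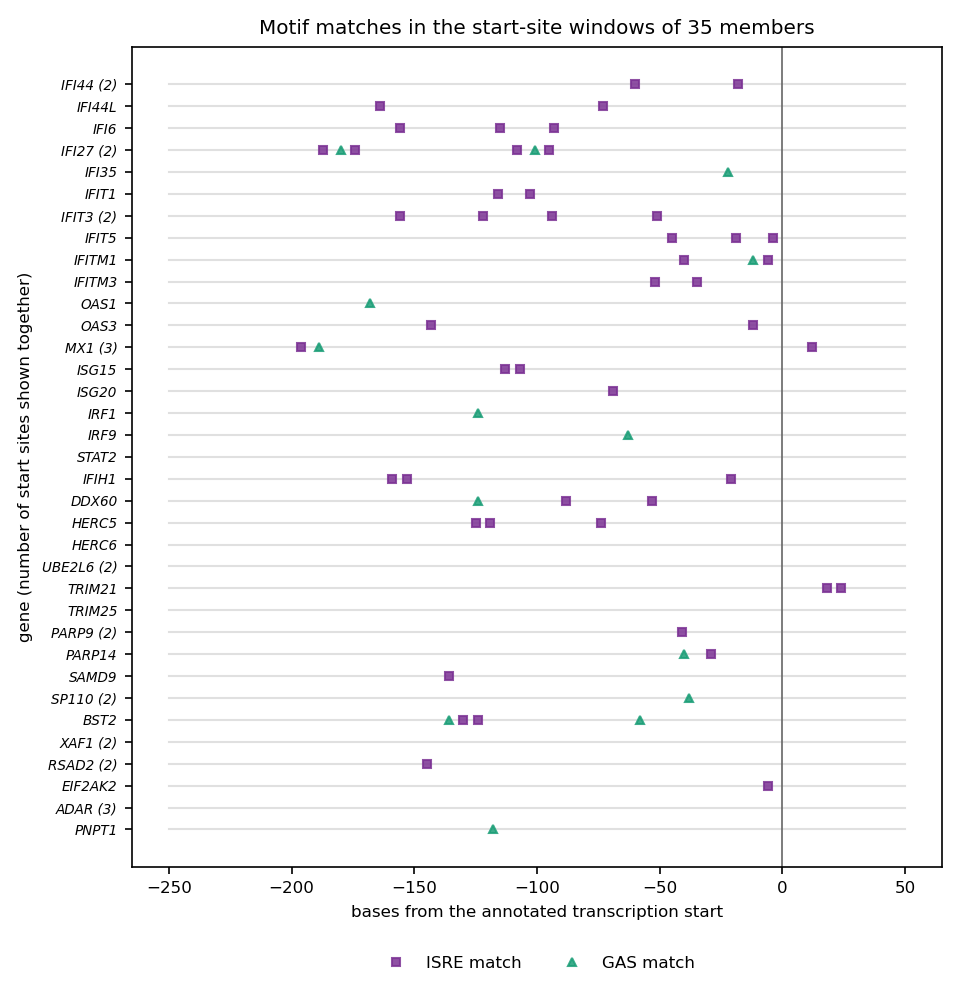
Position of ISRE matches (squares) and GAS matches (triangles) in the start-site windows of 35 members, in bases from the annotated start (vertical line at 0), with windows of several starts of a gene drawn on 1 line. ISRE matches are present in 23 of the 35 genes and GAS matches in 12.

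Members differed widely in their level in these cells. The mean over all arrays ran from 6.71 log2 units for BST2, a membrane tether of budding virions, to 11.99 for IFITM2, which blocks viral fusion. The median member, at 8.12, lay close to the median of all genes tested, at 8.26. ISG15, ADAR, IFITM3 and EIF2AK2 (the RNA-activated kinase PKR) had mean levels of 11.69, 11.18, 11.09 and 10.94, and MX1 had 10.24. Levels of different probes are not comparable as transcript amounts, since each probe has its own response.

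**Figure D2:**
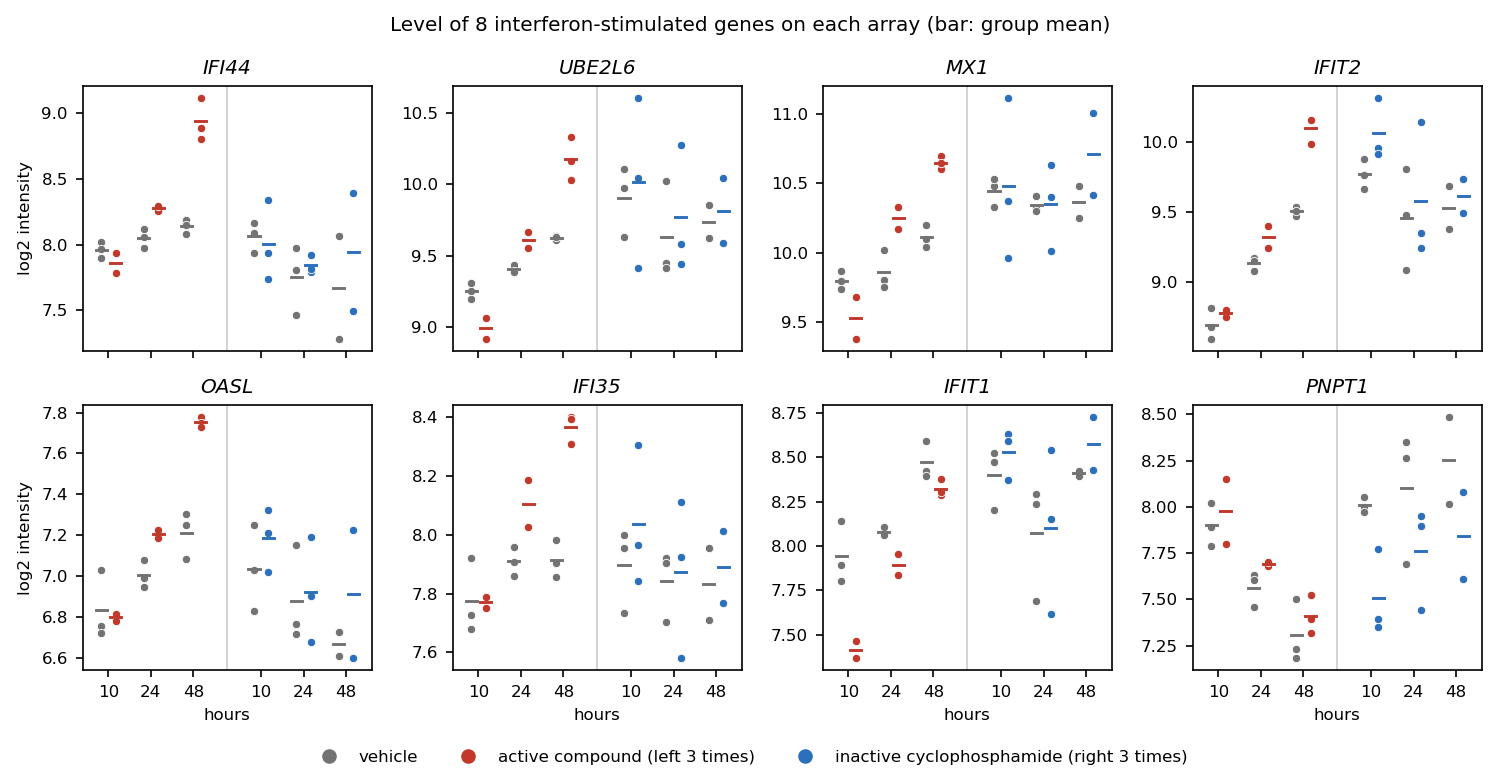
Log2 intensity of 8 members on each of the 32 arrays (points), with group means (bars), at 10, 24 and 48 h, for the active-compound experiment on the left of each panel and the inactive-compound experiment on the right. The 3 active-compound arrays at 48 h lie above their vehicle arrays for IFI44, UBE2L6, MX1, IFIT2, OASL and IFI35, whereas PNPT1 is lower in the inactive-compound arrays than in their vehicle arrays at 10 h.

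At 48 h of the active compound, 11 of the 33 tested members were called, all of them higher than vehicle. Across all genes, 9.79% were called at that time at an adjusted p under 0.05, and 4.93% were called higher, so the members' share of 33.3% lay above both. The list was chosen with earlier results of these data known, so such comparisons of shares are descriptive. The median member differed by 0.20 log2 units, against -0.006 for all genes, and 25 of the 33 had a positive difference. In bulk RNA, a change in a share of the cells and a change in every cell cannot be told apart. On 14 members all 3 treated arrays lay above all 3 vehicle arrays, and on 1, IFIT1, all lay below, where 13.9% of all genes lay entirely above and 15% entirely below. Adjusted p-values are from limma with Benjamini-Hochberg adjustment over the 10598 genes.

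IFI44, an interferon-induced protein of the cytoplasm, showed the largest difference among the tested members at 48 h. Its vehicle arrays read 8.08, 8.19 and 8.15 and its treated arrays 9.11, 8.89 and 8.80, a gap with no overlap. The difference was 0.79 log2 units (SE 0.08, 1.73-fold, adjusted p = 8.7e-07). IFI44L, its chromosomal neighbour and paralogue, read 7.46, 7.35 and 7.26 in vehicle and 7.97, 7.77 and 7.55 in treated cells, and rose by 0.41 (SE 0.09, adjusted p = 0.00605). All treated arrays were higher than all vehicle arrays for both neighbours. IFI35, which with NMI forms a cytosolic complex, read 7.86, 7.98 and 7.91 in vehicle and 8.40, 8.39 and 8.31 in treated cells (difference 0.45, adjusted p = 0.00052).

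The dynamin-like GTPase MX1, which traps viral ribonucleoproteins, read 10.20, 10.10 and 10.04 in vehicle at 48 h and 10.70, 10.60 and 10.64 under the active compound. The treated arrays were all higher, by 0.54 log2 units on average (SE 0.09, 1.45-fold, adjusted p = 0.000318). Of the oligoadenylate synthetase family, OAS1, OAS2 and OASL rose, whereas OAS3, another synthetase, whose gene lies between OAS1 and OAS2, gave 0.21 (adjusted p = 0.242). OASL, which lacks synthetase activity and promotes RIG-I signalling, read 7.08, 7.30 and 7.25 in vehicle and 7.78, 7.75 and 7.73 in treated cells (difference 0.54, SE 0.09, adjusted p = 0.000155). OAS1 read 7.59, 7.68 and 7.75 against 8.04, 8.01 and 7.93, a difference of 0.32 (adjusted p = 0.0268). OAS2 read 7.54, 7.23 and 7.30 against 7.71, 7.64 and 7.58, a difference of 0.28 (adjusted p = 0.0445). The groups did not overlap for these 3 genes, although the highest OAS2 vehicle array lay close to the lowest treated one. A second probe above the limit gave 0.32 for OAS1 and 0.38 for OAS2, and a further, dimmer probe gave -0.04 and 0.12.

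In the ISG15 conjugation system the tag and its carrier enzyme rose, and the ligase did not pass the test. ISG15 read 11.997, 11.84 and 11.86 in vehicle and 12.48, 12.19 and 12.06 in treated cells (difference 0.34, SE 0.09, adjusted p = 0.0193). UBE2L6, the conjugating enzyme that carries ISG15, read 9.61, 9.64 and 9.63 in vehicle and 10.33, 10.16 and 10.03 in treated cells (difference 0.55, SE 0.08, 1.46-fold, adjusted p = 7.52e-05). Its vehicle arrays were nearly equal, and all treated arrays were higher. A second UBE2L6 probe, below the limit for testing, gave 0.01. HERC5, the principal ligase for ISG15 in human cells, gave -0.06 (adjusted p = 0.759), and USP18, which removes ISG15, was too dim to be tested.

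Of the transcription factors, IRF1, an activator that is itself induced by interferon, read 8.95, 9.07 and 8.96 in vehicle and 9.41, 9.29 and 9.44 in treated cells at 48 h (difference 0.39, SE 0.11, adjusted p = 0.0245). IRF9, the DNA-binding subunit of ISGF3, gave -0.01 (95% interval -0.21 to 0.19). The RNA sensor IFIH1 (MDA5) gave 0.24 (adjusted p = 0.088), with all treated arrays above all vehicle arrays. The ADP-ribosyltransferase genes PARP9 and PARP14 gave 0.16 and -0.02, and neither passed the test.

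The IFIT genes, whose proteins bind foreign RNA ends, form a cluster on chromosome 10 and did not move alike at 48 h. IFIT2 read 9.54, 9.47 and 9.51 in vehicle and 10.16, 9.99 and 10.16 in treated cells, and rose by 0.60 log2 units (SE 0.08, 95% interval 0.43 to 0.76, 1.51-fold, adjusted p = 2.13e-05). Its neighbour IFIT3 gave 0.20 (interval 0.03 to 0.37, adjusted p = 0.128). IFIT1 gave -0.15 (interval -0.33 to 0.03) and IFIT5 gave -0.20 (interval -0.38 to -0.02, adjusted p = 0.15). The intervals of IFIT3, IFIT1 and IFIT5 lay entirely below that of IFIT2, and the differences between these genes were not tested. The neighbouring IFITM1, IFITM2 and IFITM3, on chromosome 11, gave 0.22, 0.10 and 0.21, with adjusted p of 0.195, 0.555 and 0.184.

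Several other members with a known antiviral role did not pass the test at 48 h. EIF2AK2, which halts translation when it binds double-stranded RNA, gave -0.06, and ADAR, the editing enzyme that marks self RNA, gave 0.03, with 95% intervals of -0.23 to 0.10 and -0.14 to 0.20. A second, dimmer ADAR probe above the limit for testing gave -0.20. BST2 gave -0.10, SP110 -0.02, TRIM21, an antibody receptor in the cytosol, 0.09, and TRIM25, a ubiquitin ligase of the RIG-I pathway, 0.20 (adjusted p = 0.16). The exonuclease ISG20 gave 0.28 (adjusted p = 0.0985) and the helicase DDX60 0.11.

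The count of 11 at 48 h depended on the spread used, the scaling and the arrays kept. Leaving out any 1 of the 6 arrays at 48 h gave 6 to 9 members. With replicate 1 of the treated arrays left out, 6 members were called: IFI44, IFIT2, UBE2L6, OASL, MX1 and IFI35. With arrays scaled to equal medians instead of quantiles, 7 were called, and in a fit of all 32 arrays, which gives both experiments 1 spread per gene, 2 were called, IFI44 and OASL.

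**Figure D3:**
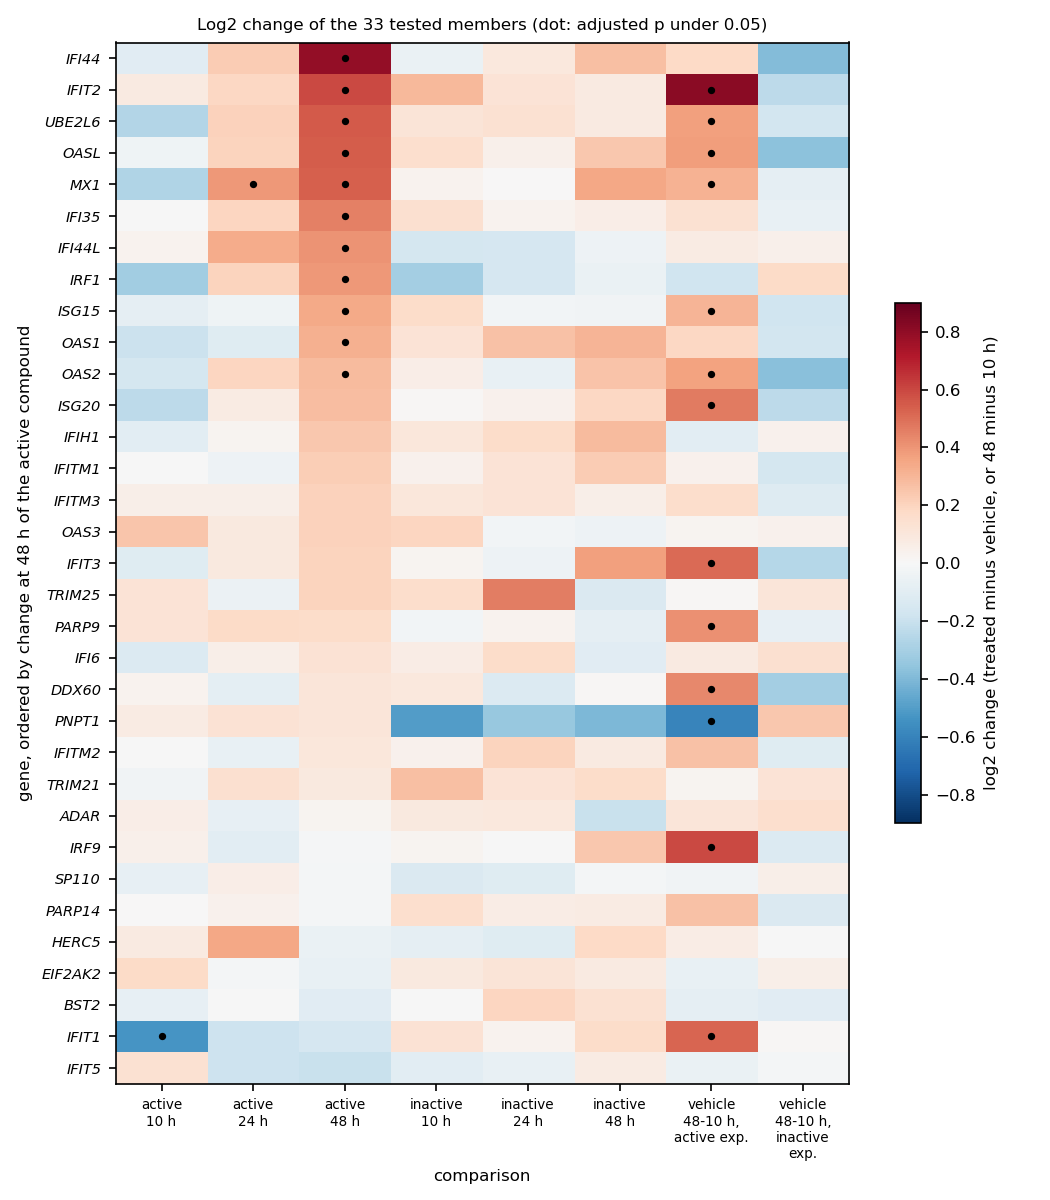
Log2 change of the 33 tested members (rows, ordered by the change at 48 h of the active compound) in 8 comparisons (columns), red for higher and blue for lower, with a dot where adjusted p was under 0.05. At 48 h of the active compound 11 members carry a dot, in the vehicle cells of that experiment 13 do between 10 and 48 h, and in the 3 inactive-compound columns none does.

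Earlier, the list gave few calls. At 10 h of the active compound 1 of the 33 members was called, where 1.65% of all genes were, and the median member stood at -0.01. The called gene was IFIT1, which read 7.89, 7.80 and 8.14 in vehicle and 7.37 and 7.46 in treated cells. Both treated arrays were below every vehicle array, and the difference was -0.53 log2 units (SE 0.10, adjusted p = 0.00411). Without treated replicate 1, a single treated array remained, assumed to vary as the other groups do, and no member was called, whereas without treated replicate 2, 3 members were called, IFIT1, IRF1 and MX1, all lower. Without vehicle replicate 3, the array on the side of the other time, IFIT1 was again the called member. MX1 and UBE2L6 gave -0.27 and -0.26 at 10 h, and neither passed the test.

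At 24 h of the active compound 1 of the 33 was called, where 1.92% of all genes were. MX1 read 9.80, 10.02 and 9.75 in vehicle and 10.33 and 10.17 in treated cells, a difference of 0.39 (SE 0.10, adjusted p = 0.0415). That call was lost without vehicle replicate 1 or 3, and without treated replicate 1 or 2. On 12 members both treated arrays lay above all vehicle arrays, where 15% of all genes did, and on 2 both lay below, where 15.1% of all genes did. HERC5 gave 0.35 and IFI44L 0.33 at this time, short of the threshold.

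Averaged over the 3 times, 8 members were called against 10.9% of all genes, 7 of them higher and IFIT1 lower (-0.29), and 8 were called again without vehicle replicate 3 at 10 h. In the fit of 32 arrays with a shared spread none of the members was called in this mean. The active compound's effect differed between 10 and 48 h on 8 members, all with a more positive difference at 48 h, where 5.11% of all genes were called and 2.89% in that direction. IFI44 went from -0.10 at 10 h through 0.23 at 24 h to 0.79 at 48 h, a change of 0.89 (SE 0.13, adjusted p = 0.000124). UBE2L6 went from -0.26 through 0.21 to 0.55 (change 0.81, adjusted p = 0.000259), and MX1 from -0.27 through 0.39 to 0.54 (change 0.80, adjusted p = 0.00102). The other 5 were IRF1, OASL, IFIT2, OAS1 and IFI35, with changes of 0.70, 0.58, 0.52, 0.51 and 0.46. IRF1 read 8.57 and 9.15 on the 2 treated arrays at 10 h, and without the lower one its change was 0.41 (adjusted p = 0.192). Without that array, treated replicate 1 at 10 h, 4 members were called (IFI44, MX1, OASL and UBE2L6), and without vehicle replicate 3 at 10 h 6 were. With median scaling 4 members were called for the change of effect, and with the shared spread 0.

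**Figure D4:**
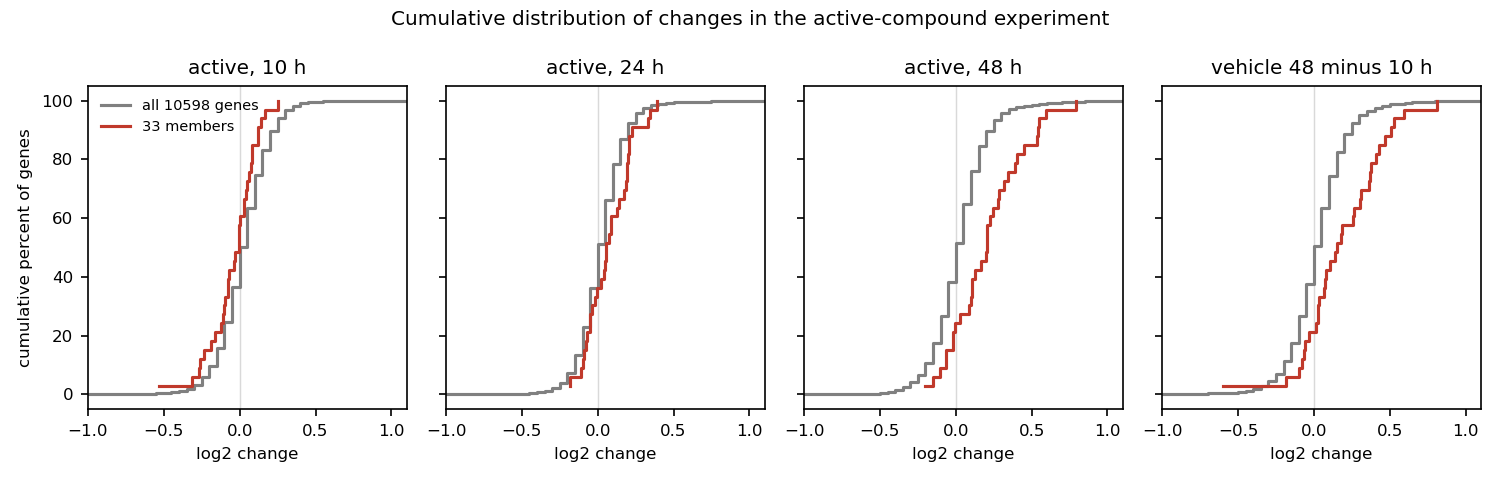
Cumulative percent of genes (vertical axis) against log2 change (horizontal axis) for the 33 members (red) and all 10598 genes tested (grey) at 10, 24 and 48 h of the active compound and between 10 and 48 h in vehicle cells of the same experiment. The member curve runs to the right of the grey curve at 48 h, with medians of 0.20 and -0.006, and in vehicle cells over time, with medians of 0.16 and -0.002.

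The vehicle cells of the active-compound experiment also changed on these genes between 10 and 48 h. Of the 33 members 13 were called, 12 higher and PNPT1 lower, where 11.7% of all genes were called and 6.02% were called higher. The rise was largest for IFIT2, whose vehicle arrays read 8.81, 8.59 and 8.67 at 10 h, 9.08, 9.17 and 9.15 at 24 h, and 9.54, 9.47 and 9.51 at 48 h. The 3 times did not overlap, and the 48 h level exceeded the 10 h level by 0.81 log2 units (SE 0.08, adjusted p = 3.3e-07). IRF9 read 9.06, 9.12 and 8.98 at 10 h and 9.84, 9.49 and 9.62 at 48 h (difference 0.60, adjusted p = 0.000204). IFIT1 read 7.89, 7.80 and 8.14 at 10 h and 8.42, 8.40 and 8.59 at 48 h (difference 0.53). The other 9 were IFIT3, ISG20, DDX60, PARP9, OASL, UBE2L6, OAS2, MX1 and ISG15, at 0.51, 0.47, 0.43, 0.41, 0.38, 0.37, 0.36, 0.31 and 0.30.

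The vehicle comparison and the 48 h comparison of the active compound use the same 48 h vehicle arrays, so their values are set side by side only. IFI44 differed by 0.18 over time in vehicle and by 0.79 under the compound at 48 h, and IFI35 by 0.14 and 0.45. IRF9 differed by 0.60 and -0.01, IFIT1 by 0.53 and -0.15, and IFIT2 by 0.81 and 0.60. IRF1 differed by -0.18 over time in vehicle (adjusted p = 0.322) and by 0.39 under the compound at 48 h. PNPT1, a mitochondrial RNA-degrading enzyme induced by interferon, fell in vehicle cells, from 8.02, 7.79 and 7.89 at 10 h to 7.18, 7.50 and 7.23 at 48 h (difference -0.60). Without the 10 h vehicle replicate 3 array 11 members were called over time in vehicle, with median scaling 8, and with the shared spread 1, IFIT2.

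In vehicle cells of the inactive-compound experiment, 0 of 33 members were called between 10 and 48 h, as were 0% of all genes, with 0 members and 240 genes at an unadjusted p under 0.05. The median member stood at -0.08. Without the 10 h vehicle replicate 3 array 0 members were again called, with a median of -0.13. OASL read 6.83, 7.25 and 7.03 at 10 h and 6.73 and 6.61 at 48 h, and IFIT2 9.76, 9.66 and 9.88 against 9.68 and 9.38, so neither showed the higher 48 h level of the active-compound experiment. The difference between the experiments in this change over time was not tested. The mean over the 33 members was 8.50 ± 0.04 (SD, n = 3) at 10 h and 8.69 ± 0.02 (SD, n = 3) at 48 h in active-experiment vehicle cells. In the other experiment it was 8.84 ± 0.05 (SD, n = 3) at 10 h and 8.77 ± 0.09 (SD, n = 2) at 48 h.

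Under inactive cyclophosphamide 0 of 33 members were called at 10 h, at 24 h, at 48 h or in the mean, against 0% of all genes at each. At an unadjusted p under 0.05 there were 1, 1, 0 and 1 members among 523, 110, 155 and 450 genes. Without the 4 replicate 3 arrays at 10 and 24 h, 0 members were again called. The standard errors were wider than in the active-compound experiment, with a median member SE of 0.22 at 48 h against 0.09. IFI44 read 8.06 and 7.28 in vehicle and 8.39 and 7.50 in treated cells at 48 h, a difference of 0.27 (95% interval -0.31 to 0.85) between groups that overlapped. Array by array in the order of the title letters, described next, the treated array was the higher by 0.33 and by 0.21.

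TRIM25 gave the smallest unadjusted p of the members at 24 h of inactive cyclophosphamide (difference 0.46, adjusted p of 1, and 0.52 without the replicate 3 arrays). In the mean over times the member with the smallest p was PNPT1. At 10 h it read 8.002, 7.97 and 8.05 in vehicle and 7.35, 7.40 and 7.77 in treated cells. It read 8.35, 8.26 and 7.69 against 7.89, 7.95 and 7.44 at 24 h, and 8.02 and 8.48 against 7.61 and 8.08 at 48 h. The groups overlapped at 24 and 48 h and not at 10 h. The mean difference was -0.42 log2 units, which did not pass the test without pairing (adjusted p = 0.994). The letters that end the sample titles run in sequences that put a vehicle array beside a treated array, and the deviations of the 8 such pairs in this experiment correlated at 0.16 to 0.69. With these pairs as a block, the same difference had an SE of 0.06 and an adjusted p of 0.0355, and PNPT1 was 1 of 10 genes called, or 0.0944% of all genes. PNPT1 was lower in the treated array in 8 of 8 pairs, by 0.25 to 0.65. That count describes the same arrays on which PNPT1 had the smallest p and is no separate test. The call with the block was lost when any pair was left out other than that of run 3 at 10 h. It was kept, with the block, without the 4 replicate 3 arrays.

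**Figure D5:**
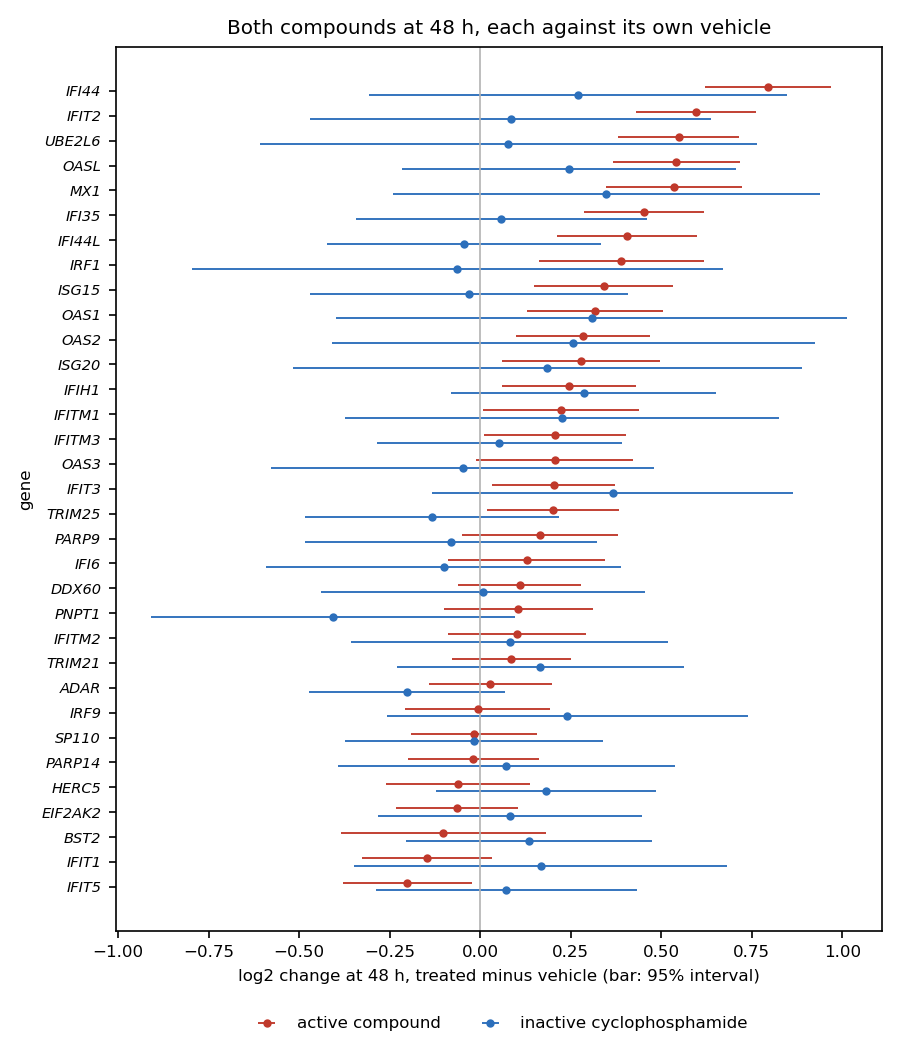
Log2 difference between treated and vehicle arrays at 48 h, with 95% interval, for the 33 members under the active compound (red, 3 against 3 arrays) and under inactive cyclophosphamide (blue, 2 against 2 arrays). The interval of IFI44 is 0.62 to 0.97 in red and -0.31 to 0.85 in blue, and the blue intervals are the wider ones.

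The 2 compounds, which differ by the hydroperoxy group on the ring, were compared at the 3 matched times and in the mean. The measure was the active effect minus the inactive effect, with the doses as uncertain as stated above. Each compound was run in an experiment of its own, so a difference between compounds cannot be told apart from one between experiments. In these 4 comparisons 0 members were called, where 0.0189%, 0.0283%, 0.0189% and 0.179% of all genes were. At an unadjusted p under 0.05 there were 2, 4, 2 and 3 members among 722, 384, 545 and 940 genes. At 48 h the difference for IFI44 was 0.52 (95% interval -0.01 to 1.05), and those for IFIT2 and IFI44L were 0.51 (interval 0.01 to 1.01) and 0.45 (interval 0.02 to 0.88). The last 2 were the only member intervals at 48 h that lay to one side of 0, before adjustment over genes (adjusted p = 0.949 and 0.946). The median member interval reached 0.47 to either side of its estimate at 48 h, so smaller differences could mostly not be resolved. No difference passed the adjusted test, and the intervals do not show that the compounds act alike.

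In the mean over times, PNPT1 had the smallest adjusted p of the members in this comparison, at 0.125, with a difference of 0.52. It was called when the 4 inactive-compound arrays on the side of the other time were left out, and also without inactive vehicle replicate 3 at 24 h alone. With the title-letter pairs as a block 2 members were called, PNPT1 as higher and IFIT1 as lower under the active compound, where 1.42% of all genes were called.

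Genes elsewhere in the interferon pathway were followed as lists apart from the members. Of 10 interferon ligand genes with a probe, 8 were too dim to be tested. The other 2, IFNE and IFNG, had mean levels of 6.76 and 6.67, near the limit of 6.65, and neither was called at 10, 24 or 48 h of the active compound. In the mean over the 3 times IFNE was called lower, at -0.19 (SE 0.06, adjusted p = 0.0457). Of 6 receptor genes, IFNGR1, a subunit of the receptor for interferon gamma, was higher than vehicle at 48 h (0.32, adjusted p = 0.016), and IFNAR2, a subunit of the type I receptor, gave 0.24 (adjusted p = 0.0501). None of the 4 tested signal transduction genes was called at 48 h, with TYK2, a Janus kinase, at -0.19 and the transcription factor IRF3 at 0.20. None of 7 negative regulators was called at 48 h.

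Of 11 tested genes of nucleic acid sensing, 4 were called at 48 h, all higher. They were RIGI, the RNA helicase sensor (0.36, adjusted p = 0.00963), the adaptors TICAM1 (0.53, adjusted p = 0.000659) and MYD88 (0.30, adjusted p = 0.017), and IFI16, a DNA sensor (0.31, adjusted p = 0.038). TICAM1 had also risen at 24 h (0.42). Of 27 other interferon-stimulated genes outside the 44, 6 were called at 48 h, all higher, with a median of 0.12 over the list. IFI30, a lysosomal thiol reductase of antigen processing, was higher than vehicle by 0.84 (adjusted p = 3.62e-06), the guanylate-binding protein gene GBP1 was higher than vehicle by 0.57 and the tryptophanyl-tRNA synthetase gene WARS1 by 0.56. In vehicle cells GBP1 had fallen by 0.58 between 10 and 48 h (adjusted p = 0.00018), from a mean of 7.54 to 6.96, and treated cells at 48 h stood at 7.53. IFI30 and IFNGR1 differed by -0.28 and -0.18 over the same time in vehicle (adjusted p = 0.0669 and 0.163). NMI, the partner of IFI35, rose by 0.27, and PARP10 and PARP12 by 0.30 and 0.29. The whole-table share at 48 h, given above, applies to these counts too.

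The 9 dim members were looked at in a fit without the limit on level. At 48 h of the active compound IRF7, the factor that amplifies type I interferon production, gave 0.33 (adjusted p = 0.0527) and RSAD2 (viperin) gave 0.31 (adjusted p = 0.126). IFI27 gave 0.22, SAMD9 0.12, DHX58 0.05, XAF1 0.03 and USP18 0.00, while MX2 gave -0.16 and TRIM22 -0.27. None of the 9 passed the test at that time.

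Within groups the members varied together to a limited degree. Over the 16 arrays of each experiment, as deviations from the group means, the median correlation between 2 members was 0.10 for the active compound and 0.17 for the inactive compound, against -0.0003 and 0.0003 for all genes. In the inactive-compound experiment the deviations of UBE2L6, MX1, OAS2, OAS1 and IFITM1 followed the mean of the other members at 0.94, 0.92, 0.88, 0.87 and 0.85, while those of PNPT1 and EIF2AK2 ran against it at -0.81 and -0.68. Without the 4 replicate 3 arrays on the side of the other time these 7 values were 0.98, 0.96, 0.89, 0.89, 0.79, -0.70 and -0.40, and the median correlation between 2 members was 0.14. These correlations are a description over arrays that share normalization and, in part, the title-letter pairs. The median residual SD of the members was 0.11 for the active compound, as for all genes, and 0.24 in the other experiment, against 0.19 for all genes, or 0.21 against 0.16 without those arrays. In the active-compound experiment, without its 1 such array, the median correlation was 0.10 and the residual SD 0.11. At 10 h of inactive cyclophosphamide MX1 read 10.37, 11.11 and 9.96, the lowest being replicate 3, one of those arrays.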

How the data were processed

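The deposited table holds linear intensity values per probe; BeadStudio and R 2.12.0 were used per the submitters' processing notes, and the authors' deposited log2 table has a normalization not given in the sources used here (Spearman correlation with the intensities at least 0.9995 on every array). No detection p-values were used. Intensities of the 32 arrays were corrected with normexp (offset 50), quantile-normalized and log2-transformed in limma 3.58.1 (R 4.3.3). Of 20589 probes, 18332 had 1 gene symbol in the platform annotation and 2257 had none. The upper 60% of probes by mean were kept, 1 per gene, leaving 10598 genes. Each experiment's 16 arrays were fitted with group means. Compound differences used all 32 arrays with a weight per experiment (1.72 and 0.58). Calls are at 5% after Benjamini-Hochberg adjustment, over 15 comparisons. The members and lists were chosen with earlier results of these data known. Members named are those called in a comparison, those with the smallest p where none was, and others by role. Title letters give 15 vehicle and treated pairs. Their deviations correlated at 0.16 to 0.69 in the inactive-compound experiment, and at -0.04 to 0.25 in the active one, where they were not used as pairs beyond an alternative fit. The scripts were tested on simulated data. The number of arrays limits the precision. Alternatives were other normalizations and filters, the pair block, a shared spread, the authors' values and single arrays left out.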

Additional observations from a re-analysis of the deposited data

Results flagged for a closer look

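On 8 members the effect of the active compound differed between 10 h and 48 h by a limma test of the difference itself. The 48 h effect exceeded the 10 h effect by 0.89 for IFI44 (adjusted p = 0.000124), 0.81 for UBE2L6 (adjusted p = 0.000259), 0.80 for MX1 (adjusted p = 0.00102) and 0.58 for OASL (adjusted p = 0.00899). For IFIT2 the excess was 0.52 (0.08 at 10 h and 0.60 at 48 h, adjusted p = 0.0132), for IRF1 0.70 (-0.31 and 0.39, adjusted p = 0.0142), for IFI35 0.46 (-0.01 and 0.45, adjusted p = 0.0267) and for OAS1 0.51 (-0.19 and 0.32, adjusted p = 0.0305). The 10 h groups hold 2 treated and 3 vehicle arrays. Without treated replicate 1 at 10 h the changes of IFI44, MX1, OASL and UBE2L6 were called. With median scaling 4 of the changes were called, and in 1 fit of 32 arrays with a shared spread 0.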

How the results depend on the processing

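Across 42 values of called members and their alternatives, 562 of 693 kept their call, 131 lost it and 0 changed direction. With median scaling the members called numbered 0 at 24 h and 7 at 48 h of the active compound, 8 between 10 and 48 h in its vehicle cells and 4 in the change of effect from 10 to 48 h. With quantile normalization within each experiment, or with no filter on level, 0 were called at 24 h. In 1 fit of 32 arrays with a shared spread, the active compound gave 0 at 10 h, 0 at 24 h, 2 at 48 h, 0 in the mean and 0 in the change of effect, and its vehicle cells gave 1 over time. With the replicate block of title-letter pairs, 1 member was called in the inactive mean and 2 in the mean compound difference, and no other count moved by over 1.5 times. Without the 4 replicate 3 arrays that lay nearer the other time, the mean compound difference gave 1. With the block as well, an alternative chosen after seeing the data, it gave 2 and the inactive mean gave 1. Leaving out 1 array at a time gave 0 to 3 members at 10 h, 0 to 1 at 24 h, 6 to 9 at 48 h and 6 to 9 in the mean of the active compound. It gave 9 to 12 in its vehicle cells over time, 4 to 10 in the change of effect, 0 to 1 in the mean compound difference and 0 in the other comparisons. Leaving out 1 pair, also chosen after seeing the data, gave 0 to 1 in the blocked inactive mean. The block of title-letter pairs could not be fitted to the vehicle comparisons over time, since each pair lies within 1 time. IFI44 and OASL at 48 h were called under every alternative tried, 14 each; the cause of the other changes was not tested. Signal over background was not available, so the dim members carry no limit of detection.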
